A study of Homo sapiens with 2 samples.

Results

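The genes described here encode 10 enzymes of glycolysis, taken in pathway order as HK2, GPI, PFKP, ALDOA, TPI1, GAPDH, PGK1, ENO1, PKM and LDHA. They were chosen by gene symbol, and all 10 were found once each in the deposited table of 10987 genes. RNA sequencing had been done on 2 libraries of THP1, a human monocytic leukaemia line that carries the MLL-AF9 fusion. In 1 of them the cells had received bort (bortezomib, a proteasome inhibitor) for 24 h, and in the other they had been left untreated; the dose and any vehicle given to the untreated cells are not stated for this experiment. The values are FPKM, which are scaled to the length of the transcript and to the mapped fragments, so levels of different genes can be set side by side within a library. With 1 library per condition there is no replicate error, no test was made, and each difference is between these libraries and not between conditions.

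Glycolysis splits glucose into pyruvate in the cytosol and yields ATP without oxygen. The early enzymes prime the sugar with phosphate and cut it into triose phosphates, the later ones oxidise the triose and recover ATP, and lactate dehydrogenase reduces the pyruvate that is not burned in mitochondria. Leukaemic cells often rely on this route. Many of its genes are known targets of the hypoxia-inducible factor HIF-1, whose alpha subunit is itself removed by the proteasome when oxygen is present. Mature red cells have no mitochondria and live on glycolysis, for which they use their own isoenzymes at some steps.

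In the bort-treated library 9 of the 10 enzyme genes were lower than in the untreated library and 1, PKM, was higher, while 49.7% of all genes in the table were lower; with upper quartile scaling, without the 20 most abundant genes or with the GC trend removed 7 of the 10 were lower. On the log2(FPKM + 1) scale the median difference of the 10 was -0.46, against 0.0049 over all genes. Most of these differences were small. TPI1 was the only member lower by 2-fold or more, a size reached by 10.2% of all genes, and no member was higher by 2-fold, as 8.08% of all genes were. At 1.5-fold 3 members were lower (HK2, GPI and TPI1), against 21.6% of all genes, and PKM was higher, against 20.8%. The shares at 1.5-fold and 2-fold give no sign of larger differences among the members than in the whole table. The summed FPKM of the 10 genes went from 2147 in the untreated library, 1.02% of the total, to 1657 in the bort-treated library, 0.748% of the total.

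The libraries themselves differed in ways that touch these values. The 20 most abundant genes held 10.8% of the summed FPKM in the untreated and 21.6% in the bort-treated library, and fold changes were more negative for GC-rich transcripts (Spearman correlation over 10907 genes, -0.49), a description across genes of 1 pair of libraries. Of the genes past 2-fold, 44.1% were higher on the deposited scale and 54.2% when the libraries were scaled by their totals without the 20 most abundant genes. All 9 erythroid marker genes examined were in the table, with a summed FPKM of 3701 untreated and 3206 bort-treated. Of 10 monocytic and myeloid markers 5 were present, summing to 20.3 and 55.9 FPKM, and CD14, CSF1R, MPO, FCGR1A and S100A8 were not. Defining markers of the labelled line were thus missing from the table, and the libraries are called here by their labels. The read depth is not known, and counting errors are therefore not given.

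The 250 bases before the transcription start are shown for 5 of the genes, because these windows differ in the hypoxia response core. They come from RefSeq on GRCh38.p14, another build than that of the deposited table, and are read 5′ to 3′ on the strand of the gene. Capitals mark the core in its ACGTG form, on either strand. Other forms, such as GCGTG, were not searched. Where the core lies in the palindromic E-box CACGTG, it counts on both strands. PGK1 and LDHA hold the core at several places, GAPDH is the most abundant member, TPI1 had the largest difference, and PKM was the only member that was higher.
PGK1 (chrX:78103998-78104247, plus strand): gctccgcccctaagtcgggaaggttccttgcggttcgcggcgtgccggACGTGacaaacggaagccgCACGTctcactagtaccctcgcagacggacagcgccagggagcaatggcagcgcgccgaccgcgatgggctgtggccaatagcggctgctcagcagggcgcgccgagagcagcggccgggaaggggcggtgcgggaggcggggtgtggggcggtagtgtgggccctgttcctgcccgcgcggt
LDHA (chr11:18394313-18394562, plus strand): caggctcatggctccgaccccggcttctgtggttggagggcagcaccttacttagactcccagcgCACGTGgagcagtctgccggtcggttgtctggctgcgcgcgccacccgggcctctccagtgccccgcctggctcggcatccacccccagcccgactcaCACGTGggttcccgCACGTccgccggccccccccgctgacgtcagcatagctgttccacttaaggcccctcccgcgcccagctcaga
GAPDH (chr12:6535014-6535263, plus strand): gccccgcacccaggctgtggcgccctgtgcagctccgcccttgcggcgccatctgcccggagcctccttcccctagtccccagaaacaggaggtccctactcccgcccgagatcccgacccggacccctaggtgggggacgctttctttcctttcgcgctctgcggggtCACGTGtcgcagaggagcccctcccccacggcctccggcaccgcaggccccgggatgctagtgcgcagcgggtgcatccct
TPI1 (chr12:6867281-6867530, plus strand): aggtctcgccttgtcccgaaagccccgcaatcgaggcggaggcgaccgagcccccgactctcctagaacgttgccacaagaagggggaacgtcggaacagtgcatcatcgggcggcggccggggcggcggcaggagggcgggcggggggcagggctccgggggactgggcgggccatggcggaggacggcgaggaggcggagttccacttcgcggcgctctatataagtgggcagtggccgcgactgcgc
PKM (chr15:72231191-72231440, minus strand): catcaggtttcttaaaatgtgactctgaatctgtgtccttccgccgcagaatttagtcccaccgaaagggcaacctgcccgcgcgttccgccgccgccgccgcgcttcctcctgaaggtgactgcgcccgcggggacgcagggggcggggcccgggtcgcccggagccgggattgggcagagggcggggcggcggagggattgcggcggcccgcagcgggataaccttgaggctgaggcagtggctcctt

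All 10 genes matched the RefSeq table, with 18 start windows between them, since HK2, PFKP, ALDOA, TPI1 and LDHA have more than 1. The core was present in 11 of the 18 windows and in 18.5% of the 35116 windows of the same length over all genes. Counted by gene, 8 of the 10 had it in at least 1 window, against 21.7% of all genes. ENO1 and PKM had no ACGTG match, though the ENO1 window holds GCGTG, which was not searched. The E-box was found in 4 of the 18 windows against 6.34% of all windows, and the GC box GGGCGG, on either strand, in 12 of 18 against 42.6%. Windows of 1 gene can overlap, and no count was tested. The shares over all genes were matched to the members neither for GC content nor for windows per gene (35116 windows for 27305 genes). The comparison is therefore not like for like. The printed LDHA window is the upstream of its pair, with 5 matches at 3 places, and the other LDHA window had none. Of the pair without ACGTG in any window, ENO1 was lower and PKM was higher in the bort-treated library. TPI1, without it in the printed window, held it 17 bases before the start in its other window.

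The priming steps came first. Hexokinase 2, HK2 (ENSG00000159399.9_3), traps glucose in the cell as its phosphate and is the inducible form. It was at 13.4 FPKM in the untreated and 6.75 FPKM in the bort-treated library, the lowest level of the 10 in both. Its log2 fold change was -0.90, and 12.2% of all genes had a more negative one. GPI (ENSG00000105220.14_3), the isomerase between the glucose and fructose phosphates, was at 52.6 FPKM untreated and 31.6 FPKM bort-treated, a log2 fold change of -0.72. PFKP (ENSG00000067057.16_3), the platelet form of phosphofructokinase, catalyses the committed step. It was at 22.5 FPKM untreated and 20.9 FPKM bort-treated, and its log2 fold change of -0.10 turned to 0.0058 when scaled without the 20 most abundant genes, to 0.0028 with upper quartile scaling and to 0.25 with the GC trend removed. So no direction can be given for PFKP.

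The sugar is then cut into trioses. ALDOA (ENSG00000149925.17_4), the main aldolase of blood cells, was at 90.3 FPKM in the untreated and 64.1 FPKM in the bort-treated library, a log2 fold change of -0.49. TPI1 (ENSG00000111669.14_2) interconverts the triose phosphates and has no isoenzyme. It was at 229.4 FPKM untreated and 111.6 FPKM bort-treated, a log2 fold change of -1.03, and 9.67% of all genes had a more negative value. TPI1 remained lower under every scaling, but passed 2-fold neither with upper quartile scaling (-0.92) nor without the 20 most abundant genes (-0.92) nor with the GC trend removed (-0.74).

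Among the enzymes that oxidise the triose and recover ATP, 2 stood far above the rest. GAPDH (ENSG00000111640.14_2), the dehydrogenase that makes NADH at this stage, was at 774.6 FPKM untreated and 695.1 FPKM bort-treated, ranks 13 and 28 among all genes. ENO1 (ENSG00000074800.13_3), the common enolase, was at 728.8 and 491.8 FPKM, ranks 16 and 44. Together these genes made up 70.0% of the members' summed FPKM in the untreated and 71.6% in the bort-treated library. The log2 fold change of ENO1 was -0.57 and it was lower under every setting. That of GAPDH was -0.16, and became 0.18 with the GC trend removed, so its direction depended on that correction. PGK1 (ENSG00000102144.13_2), which makes the first ATP of the route, was at 104.1 FPKM untreated and 76.6 FPKM bort-treated, a log2 fold change of -0.44.

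PKM and LDHA end the pathway. PKM (ENSG00000067225.17_4), the pyruvate kinase of most tissues and of proliferating cells, had 45.2 FPKM untreated and 77.2 FPKM bort-treated. It was thus 1.71-fold higher by FPKM, with a log2 fold change of 0.76, and 85.6% of all genes had a lower value. PKM stayed higher under every setting, and with the GC trend removed it passed 2-fold, at 1.05. The gene makes PKM1 and PKM2 by alternative splicing, which values per gene cannot tell apart. LDHA (ENSG00000134333.13_3), the muscle-type subunit of lactate dehydrogenase, was at 86.2 FPKM untreated and 81.7 FPKM bort-treated. Its log2 fold change of -0.076 turned to 0.035 when scaled without the 20 most abundant genes and to 0.032 with upper quartile scaling, so LDHA had no settled direction either.

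Ordered by level, GAPDH, ENO1 and TPI1 led in both libraries, and GPI, PFKP and HK2 were among the 4 lowest of the untreated library and were the 3 lowest of the bort-treated library. PKM moved most in this order, from place 8 to place 5. The highest member was 57.7 times the lowest in the untreated library and 103.0 times in the bort-treated library. Whether neighbours in the order differ beyond the spread between cultures cannot be said.

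**Figure D1:**
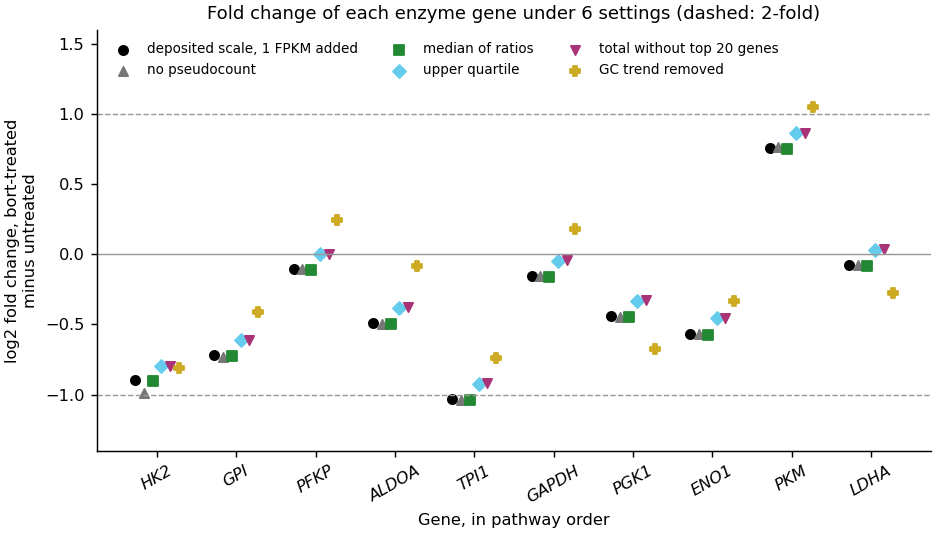
log2 fold change (bort-treated minus untreated) of each enzyme gene on the deposited scale and under 5 other settings, with dashed lines at 2-fold. HK2, GPI, ALDOA, TPI1, PGK1 and ENO1 lie below 0 under all 6 settings and PKM above 0, whereas PFKP, GAPDH and LDHA cross 0 under some.

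The GC content of the members' transcripts, taken from GENCODE 29, ranged from 43.9% for PGK1 to 59.7% for ALDOA, with a median of 56.1% against 49.5% over all genes. Genes that share this composition were lower as well. Within 1 percentage point of TPI1 there were 720 genes, with a median log2 fold change of -0.28, and around ALDOA the 723 genes had a median of -0.40, close to the -0.49 of ALDOA itself. PGK1 went the other way from its neighbours: the median of the 1004 genes around it was 0.22, and PGK1 was at -0.44. PKM did so too, at 0.76 where the 727 genes around it had a median of -0.28. LDHA did as well, at -0.076 where the 911 genes around it had a median of 0.18. With the trend removed, 7 of the 10 members were lower, with a median of -0.30 against 0.013 over all genes, and PFKP, GAPDH and PKM were higher.

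Most steps of glycolysis can be run by more than 1 gene, and the make-up of several steps differed between the libraries. Of 20 listed isoenzymes and other enzymes 12 were present, 3 higher and 9 lower in the bort-treated library, with a median log2 fold change of -0.52. Past 2-fold were ENO2, higher, as 8.08% of all genes were, and PFKL, PGAM4 and PKLR, lower, as 10.2% of all genes were. With the GC trend removed PFKL fell short of 2-fold, at -0.55, and the others stayed past it. The sum over the genes of a step was lower in the bort-treated library at all 11 steps on the deposited scale. It was lower at 10 of 11 with upper quartile scaling or without the 20 most abundant genes. Steps with a single gene in the table (GPI, TPI1, GAPDH and PGK1) repeat the values of those members. The pyruvate kinase step was nearly level, at -0.038. Step sums were not run with the GC trend removed. On the deposited scale only triosephosphate isomerase (-1.03) and phosphoglycerate mutase (-1.03) were lower by 2-fold as a step. The isomerase step is TPI1 alone and fell short of 2-fold with upper quartile scaling (-0.92). The mutase step passed 2-fold with PGAM4 added, while PGAM1 alone was at -0.94.

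Pyruvate kinase showed the largest change in make-up. PKLR, the form of red cells and liver, had 43.4 FPKM untreated, level with PKM, and 9.16 FPKM bort-treated. Its log2 fold change of -2.13 was in the lowest 0.928% of all genes. PKM accordingly held 51.0% of the step's FPKM untreated and 89.4% bort-treated. The sum of both genes hardly differed, with 88.6 FPKM untreated and 86.3 FPKM bort-treated. Of the 9 erythroid markers 4 were also lower by 2-fold or more, a size reached by 10.2% of all genes. They were the transcription factors GATA1 (161.3 FPKM untreated, 48.7 FPKM bort-treated) and KLF1 (147.1 and 17.4 FPKM), the embryonic globin HBZ (584.0 and 158.5 FPKM) and the erythropoietin receptor EPOR (8.43 and 2.83 FPKM). With the GC trend removed EPOR fell short of 2-fold, at -0.76. Of the 5 monocytic and myeloid markers found 4 were higher, as 5526 of all 10987 genes were, and CD33 was lower. LYZ and CD68 were past 2-fold, as 8.08% of all genes were. The other higher ones were below 1 FPKM in both libraries. The part of these markers in the pyruvate kinase values was not tested.

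At the phosphofructokinase step PFKP was nearly level while its sister genes were lower. PFKL, the liver form, was at 25.9 FPKM untreated and 11.1 FPKM bort-treated, and PFKM, the muscle form, at 11.5 and 5.87 FPKM. PFKP therefore went from 37.5% to 55.2% of the step. Hexokinase was mainly HK1, the form of red cells and brain, at 140.5 FPKM untreated and 106.1 FPKM bort-treated. HK2 held 8.72% of that step in the untreated library and 5.98% in the bort-treated library. HK3 and HKDC1 were not in the table. ADPGK, which phosphorylates glucose with ADP and was not counted with hexokinase, was at 5.33 and 10.7 FPKM.

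Enolase, aldolase and lactate dehydrogenase kept their leading gene. ENO1 held 99.1% of the enolase FPKM untreated and 97.7% bort-treated, although ENO2, the neuronal form, was at 4.17 FPKM untreated and 9.91 FPKM bort-treated. ENO3, the muscle form, was at 2.28 and 1.53 FPKM. ALDOA held 89.0% and 90.4% of aldolase, the rest being ALDOC at 11.1 and 6.81 FPKM. For lactate dehydrogenase LDHB, the heart-type subunit that favours pyruvate, was the main gene, at 283.3 FPKM untreated and 242.7 FPKM bort-treated. LDHA was 23.3% of that step in the untreated and 25.2% in the bort-treated library. PGAM1, the mutase between PGK1 and ENO1, was at 95.0 and 48.9 FPKM, a log2 fold change of -0.94, just short of 2-fold. PGAM4, a retrocopy of PGAM1 that lies inside the PGK1 locus on the opposite strand, was at 9.93 and 1.79 FPKM, and reads could be shared between these near-identical genes. BPGM, which makes the bisphosphoglycerate that lowers the oxygen affinity of haemoglobin, was nearly level at 7.56 and 7.93 FPKM.

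**Figure D2:**
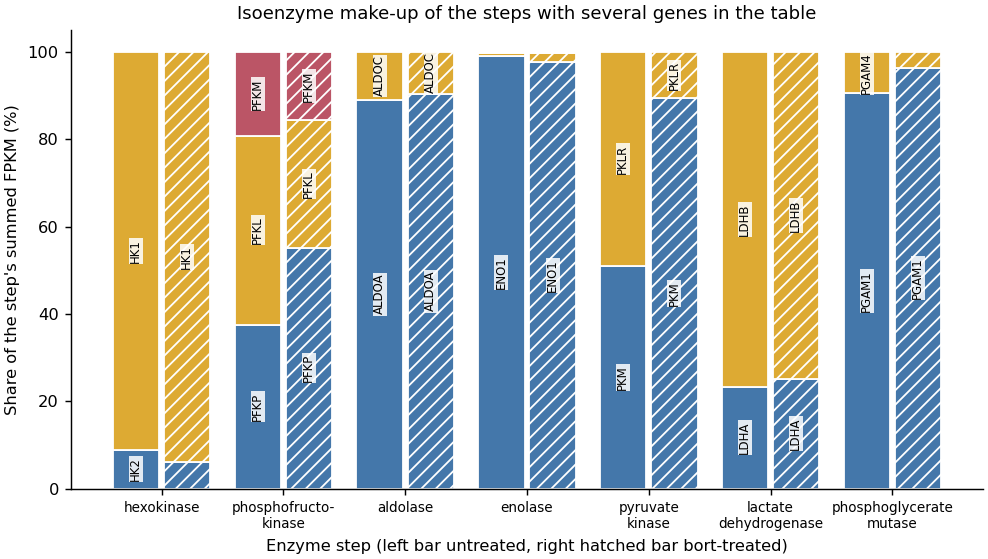
Share of each gene in the summed FPKM of its enzyme step (percent, bars from 0), for the 7 steps with several genes in the table, in the untreated (left bar) and bort-treated library (right, hatched bar). PKM goes from 51.0% to 89.4% of pyruvate kinase and PFKP from 37.5% to 55.2% of phosphofructokinase, while ENO1, ALDOA and LDHA stay within 2 percentage points; parts under 8% carry no name.

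Some members share sequence with other genes. GENCODE 29 names 85 pseudogenes after 8 of the 10 members, 62 of them after GAPDH, and none of these pseudogenes was in the table, so reads from them could have been counted elsewhere or not at all. On their own strand GPI overlaps AC092073.1, ALDOA overlaps AC093512.2 and PGK1 overlaps ATP7A. AC092073.1 was at 1.74 and 0.760 FPKM in the untreated and bort-treated library and ATP7A was at 1.73 FPKM in the latter, far below the members they overlap. Whether strand was used in the counting is not clear, because the labels and the methods name different library kits.

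Upstream and downstream of the enzymes, genes of glucose handling went both ways. The glucose transporter SLC2A1 (GLUT1), the main one of blood cells, was at 26.2 FPKM untreated and 47.5 FPKM bort-treated, a log2 fold change of 0.83. SLC2A3 (GLUT3) was at 8.80 and 15.7 FPKM, and its log2 fold change was 0.77. Both stayed higher with the GC trend removed, at 1.15 for SLC2A1 and 0.66 for SLC2A3. SLC16A1, which carries lactate out of the cell, was at 30.4 and 32.7 FPKM, and its chaperone BSG at 81.7 and 65.9 FPKM. The mitochondrial pyruvate carrier genes MPC1, at 25.3 and 21.9 FPKM, and MPC2, at 45.4 and 40.0 FPKM, differed little. SLC2A8, at 1.86 and 1.25 FPKM, and SLC2A4, at 0.543 FPKM in the bort-treated library and below that in the other, were low in both. Of the 13 transport genes listed 8 were present, 4 higher and 4 lower, none past 2-fold. Their median log2 fold change was -0.039, and it was positive with upper quartile scaling (0.068), without the 20 most abundant genes (0.071) and with the GC trend removed (0.19).

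Of 13 regulators of glycolytic flux 10 were present, 7 higher and 3 lower, with a median of 0.18. Past 2-fold were ARRDC4, an arrestin that lowers glucose uptake, at 5.68 FPKM untreated and 16.9 FPKM bort-treated, and PDK1, the kinase that shuts pyruvate dehydrogenase, at 1.21 and 3.52 FPKM, although PDK1 fell short of 2-fold with the GC trend removed, at 0.68. TXNIP, a relative of ARRDC4 with the same known role, was at 42.3 and 70.8 FPKM. PFKFB3, which makes the activator of phosphofructokinase, had the most negative value of the list, at 2.78 and 1.33 FPKM, a log2 fold change of -0.70.

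The pentose phosphate pathway, which branches off after hexokinase, resembled the members in its median, -0.43, with 6 of 7 genes lower. RPIA, the ribose phosphate isomerase, was at 41.4 FPKM untreated and 13.2 FPKM bort-treated (log2 fold change -1.58). RPE, the epimerase, was higher, at 6.34 and 14.8 FPKM (1.11), but fell short of 2-fold with the GC trend removed, at 0.85. Pyruvate dehydrogenase and citrate cycle genes were lower in 16 of 21 cases, with a median of -0.34. OGDH at 17.6 and 4.16 FPKM and MDH2 at 192.3 and 63.6 FPKM were past 2-fold, and DLST had the highest value of the list, 11.1 and 16.8 FPKM. Genes of side branches, glycogen and gluconeogenesis had a median of 0.24, with 8 of 12 higher. GFPT1, which draws fructose phosphate into hexosamines, was at 5.54 and 19.0 FPKM (1.61), and PC, pyruvate carboxylase, at 8.89 and 3.58 FPKM (-1.11). With the GC trend removed PC fell short of 2-fold, at -0.65, and GFPT1 was at 1.12.

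Hypoxia target genes outside glycolysis went mostly the opposite way from the enzymes. Of 13 listed genes 12 were present and 11 of them were higher in the bort-treated library, as 5526 of all 10987 genes were. The median log2 fold change of the 12 was 0.83. Past 2-fold were 4 of the 12, against 8.08% of all genes higher by that much. Of the 10 enzymes 9 were lower, or 7 under some other settings. DDIT4, an inhibitor of mTORC1 that other stresses are known to induce as well, was at 11.6 FPKM untreated and 82.0 FPKM bort-treated, a log2 fold change of 2.72. NDRG1 was at 2.61 and 15.6 FPKM, BNIP3L, a receptor of mitophagy, at 11.1 and 40.5 FPKM, and VEGFA, the endothelial growth factor, at 2.64 and 9.53 FPKM. MXI1 was the exception, at 3.05 and 2.27 FPKM. Of the regulators, HIF1A was at 4.28 and 6.14 FPKM and its partner ARNT at 5.69 and 8.59 FPKM. The log2 fold change of HIF1A was 0.44, but it turned to -0.059 after GC correction, so HIF1A had no settled direction. EPAS1, which encodes HIF-2 alpha, was the only regulator past 2-fold, at 3.35 and 9.32 FPKM. VHL, which marks the alpha subunits for the proteasome, was at 14.4 and 10.1 FPKM, the most negative value of the 8 regulators. These are levels of mRNA, and no protein was measured here.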

How the data were processed

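RNA sequencing of 1 bort-treated and 1 untreated THP1 culture was analysed. Per the methods, HISAT2 2.0.4 aligned the trimmed reads and StringTie 1.2.3 gave the abundances. The submitters' processing notes name GRCh37; the annotation is not given in the sources used here. The authors deposited FPKM values, headed as such although the file is named for raw counts. Every gene reached 0.501 FPKM in at least 1 library, so genes low in both are not analysed here. Only 20 and 15 genes with a single transcript lay below 0.2 FPKM, too few to recover depth. FPKM depend on the other genes of a library, so scalings were varied.

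Fold changes are differences of log2(FPKM + 1), bort-treated minus untreated; this understates changes of low genes. A fold of 2 follows the study's limit. GC content was pooled over the GENCODE 29 transcripts of a gene, found for 10907 genes (99.3%), and its trend was removed by lowess (span 0.3). Functions were tested on simulated data. The members and the 11 lists were chosen with earlier results of these data known. Genes named are the members, the isoenzymes, transporters and reference genes, the ends of each list and list genes past 2-fold; TXNIP, HIF1A and ARNT were chosen after their values were seen. Some genes of these lists are counted but not reported here by name. Calculations ran in Python 3.11.15 with pandas 2.3.3, numpy 2.4.6 and statsmodels 0.14.6 (lowess); rank correlations came from scipy 1.17.1 and plots from matplotlib 3.10.9.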

Additional observations from a re-analysis of the deposited data

How the results depend on the processing

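No paired analysis was possible because there was a single library of either kind, and none could be left out. The scalings of the step sums were chosen after seeing the data, and the other settings were listed with earlier results known. The number of members lower by 2-fold was 1, against 0 with upper quartile scaling, without the 20 most abundant genes, after GC correction and at a 4-fold limit, and 3 at 1.5-fold. The number higher by 2-fold was 0, against 1 at 1.5-fold and 1 after GC correction. The members' median log2 fold change was negative under every setting run. The median of the transport genes, -0.039, was 0.068 with upper quartile scaling, 0.071 without the 20 most abundant genes, 0.19 with the GC trend removed and 0.11 as a mean. The hypoxia target genes outside glycolysis had a mean of 1.04 in place of a median of 0.83. Apart from the settings' own construction, the cause of these shifts was not tested. The other pathway lists kept the sign of their median under every setting. Pseudocounts of 0.1 and 0.5 FPKM, none, and a filter of 1 FPKM in both libraries changed no count of members, though HK2 came close to 2-fold without a pseudocount, at -0.99. Depth is unknown, so the part of counting error in low genes such as ENO3 or PDK1 cannot be given.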

Other observations

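GAPDH often serves as the reference of qRT-PCR, and 13 other genes in that use were set beside it; all were in the table. On the log2(FPKM + 1) scale GAPDH differed by -0.16, and 11 of the 13 differed by more, in either direction. POLR2A (-0.12) and RPL13A (0.12) differed by less. Among those past 2-fold, B2M (1.12), TBP (1.02) and YWHAZ (1.01) were higher in the bort-treated library, and GUSB (-1.23) was lower. With the GC trend removed B2M (0.71), TBP (0.92), YWHAZ (0.76) and GUSB (-0.95) fell short of 2-fold. The others past 2-fold, not named here, stayed past it. ACTB, the internal control of the qRT-PCR in the study, was at 367.3 FPKM untreated and 235.1 FPKM bort-treated, a log2 fold change of -0.64. With the GC trend removed ACTB was at -0.25 and GAPDH at 0.18. On the deposited scale PPIA was at -0.67, TFRC at -0.95, RPLP0 at 0.38 and HPRT1 at 0.25.

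Divided by GAPDH, ACTB went from 0.474 in the untreated to 0.338 in the bort-treated library. PKM divided by GAPDH went from 0.0584 to 0.111, and TPI1 divided by GAPDH from 0.296 to 0.161. The ratio of LDHA to LDHB was 0.304 untreated and 0.337 bort-treated, and that of PKM to PKLR was 1.04 and 8.43. Each of these is a single value per library, with no replicate to set it against.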
